A study of Mus musculus with 4 samples.

Results

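Of 17891 olfactory sensory neurons (OSNs) that were assigned to 1 odorant receptor in the mouse main olfactory epithelium, 114 had chosen Olfr1347 and 218 had chosen Olfr1348, which made 332 neurons in all. The neurons were chosen from their own counts. A barcode needed at least 500 detected genes, at most 10% mitochondrial UMIs, at least 5 UMIs of Omp (olfactory marker protein, found in mature OSNs) and at most 15 UMIs of Cyp2g1 (a supporting-cell enzyme). Its top odorant receptor had to be Olfr1347 or Olfr1348 with at least 3 UMIs and 80% of all its receptor UMIs. A UMI, or unique molecular identifier, marks 1 captured RNA molecule. Of 41911 deposited barcodes, 20775 met the conditions on quality, Omp and Cyp2g1, and 17559 assigned neurons had chosen another receptor. The cells came from wild-type C57BL/6J mice aged 3 months, in 2 libraries from females (female 1 and female 2) and 2 from males (male 1 and male 2). Tissue was dissociated with papain, and droplet libraries that read the 5′ end of transcripts were made. The number of mice behind a library is not given in the sources used here, so p-values measure the spread between libraries.

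A mature OSN transcribes a single odorant receptor gene from a very large family, and the chosen receptor sets both what the neuron detects and where its axon ends in the olfactory bulb. The receptor signals through the G protein Golf and adenylyl cyclase to a cyclic nucleotide-gated channel. The levels of genes such as S100a5, Kirrel2 and Kirrel3 are known to depend on that signalling. OSNs also differ by the region of the epithelium they lie in, which enzymes such as Nqo1 and Acsm4 mark for the dorsal part.

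Olfr1347 (ENSMUSG00000034583) and Olfr1348 (ENSMUSG00000093877) are neighbours on the minus strand of chromosome 7. In GENCODE M21 on GRCm38 they lie at chr7:6486944-6499755 and chr7:6499793-6508748, with 37 bases between them. In both, the coding sequence of 939 bases sits in 1 exon. The transcripts used here have 2 exons (Olfr1347-202) and 4 exons (Olfr1348-209), of which the others are untranslated. The coding sequences were identical at 861 of 939 positions (91.7%). The 78 differences all lay between bases 5 and 522, and the last 417 bases, from 523 to 939, were the same in both genes. The first 100 bases held 28 of the differences. The first 90 coding bases are shown because they tell the receptors apart, with the 26 bases that differ in capitals.
Olfr1347 bases 1 to 90: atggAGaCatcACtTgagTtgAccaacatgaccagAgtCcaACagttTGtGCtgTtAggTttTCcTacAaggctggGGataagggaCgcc
Olfr1348 bases 1 to 90: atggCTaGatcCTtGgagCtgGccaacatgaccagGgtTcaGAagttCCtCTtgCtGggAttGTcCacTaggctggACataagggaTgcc
The stretch from base 478 to 567 is shown because it holds the last difference, with its 13 differing bases in capitals.
Olfr1347 bases 478 to 567: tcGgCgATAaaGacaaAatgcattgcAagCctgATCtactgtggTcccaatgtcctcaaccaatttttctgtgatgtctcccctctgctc
Olfr1348 bases 478 to 567: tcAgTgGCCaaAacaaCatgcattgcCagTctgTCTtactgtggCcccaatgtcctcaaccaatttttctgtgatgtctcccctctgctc
Reads that fall wholly within the shared end cannot be told apart by sequence. The counts of the pair were nevertheless separate. Of the neurons passing Omp and Cyp2g1, 132 had at least 3 UMIs of Olfr1347, 242 had at least 3 of Olfr1348, and 0 had at least 3 of both. The 114 Olfr1347 neurons held 7 UMIs of Olfr1348, and the 218 Olfr1348 neurons held 11 UMIs of Olfr1347. The rule that chose these neurons limits the share of any other receptor, so these low numbers are partly set by it. How reads from the shared end were counted was not tested. The pair was less like 2 other receptors of the same cluster: Olfr1346 shared 77.1% of aligned positions with Olfr1347 and 76.3% with Olfr1348, and Olfr1336 shared 83.8% and 83.0%.

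By number of neurons, Olfr1348 ranked 3 and Olfr1347 ranked 12 among 960 receptors. In female 1, female 2, male 1 and male 2 there were 34, 32, 21 and 27 Olfr1347 neurons, which were 0.750%, 0.741%, 0.473% and 0.587% of the assigned neurons. There were 56, 59, 43 and 60 Olfr1348 neurons, or 1.24%, 1.37%, 0.968% and 1.30%. The Olfr1348 share was above the Olfr1347 share in each library. The Olfr1347 share was 0.746% ± 0.00646 (SD, n = 2) in females and 0.530% ± 0.0805 (SD, n = 2) in males, and an exact two-sided permutation test gave p 0.333, the smallest that 2 libraries against 2 can give. The Olfr1348 share was 1.30% ± 0.0924 and 1.14% ± 0.237 (SD, n = 2 each), with an exact permutation p of 0.667.

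Most neurons of the pair lay well inside the rule. Olfr1347 was the top receptor of 133 OSNs, of which 12 had fewer than 3 UMIs of it and 7 fell under 80%. For Olfr1348 the numbers were 246, 16 and 12. The lowest receptor share inside the rule was 81.8% in Olfr1347 neurons and 80.2% in Olfr1348 neurons, and the highest outside it was 76.6% for both. Among all receptor UMIs of the chosen neurons, 98.8% came from Olfr1347 and 97.9% from Olfr1348.

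The counted level of the chosen receptor was higher in Olfr1347 neurons than in Olfr1348 neurons. Levels are given in CPM, the usual depth-scaled unit in which the UMIs of a gene are taken relative to all UMIs in the summed neurons of a library. Olfr1347 stood at 19774, 14994, 18361 and 16706 CPM in female 1, female 2, male 1 and male 2, and Olfr1348 at 11523, 10448, 12004 and 9829 CPM. The chosen receptors of all other neurons summed to 9353, 8834, 9284 and 8768 CPM. The 3 sets of values did not overlap, and the order was the same in each library. Pooled over libraries, Olfr1347 ranked 7 and Olfr1348 ranked 20 among 69 receptors with at least 10 neurons in every library. These levels were used to choose the neurons and carry no test. How reads from the sequence shared by the 2 genes affect their counts was not tested. The median depth was 9750.5, 9674.5, 8433 and 7387 UMIs per Olfr1347 neuron and 9773.5, 10211, 9640 and 9189.5 per Olfr1348 neuron. It was lower in Olfr1347 neurons in 4 of 4 libraries, by 892 ± 777 UMIs on average (SD, n = 4), and an exact two-sided sign-flip permutation test gave p 0.125, the smallest that 4 libraries allow. Neurons of other receptors had median depths of 8565.5, 8237, 8059 and 7749 UMIs in the same order, below Olfr1348 neurons in each library.

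**Figure D1:**
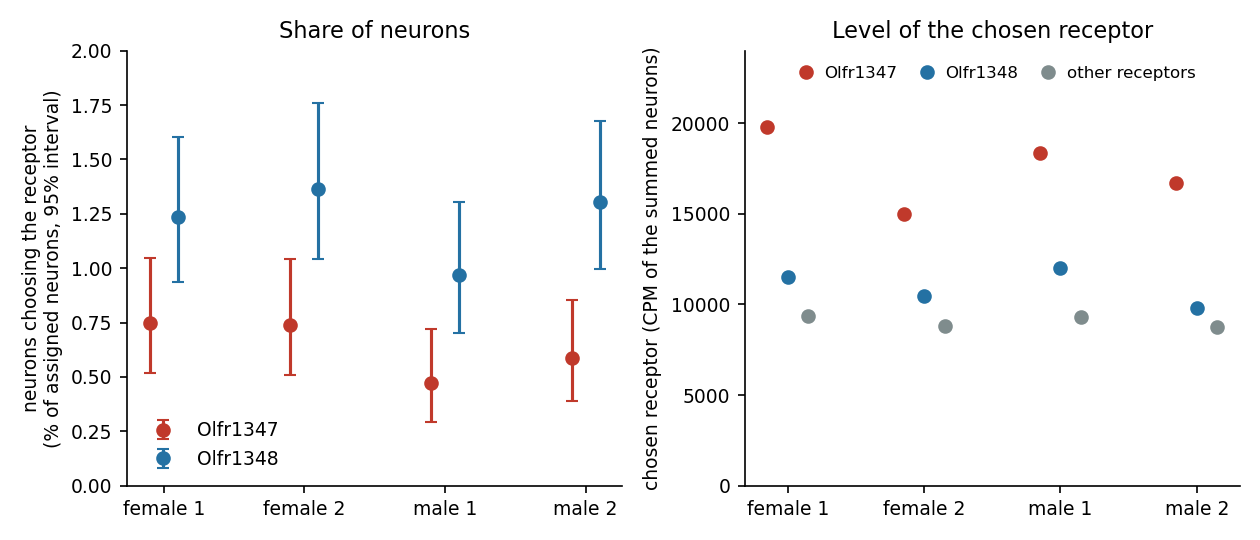
Left, neurons choosing Olfr1347 (red) or Olfr1348 (blue) as a percentage of assigned neurons in each library, with exact 95% binomial intervals that cover counting error only. Right, level of the chosen receptor in CPM in the summed neurons of each library, with other receptors in grey. Olfr1348 neurons were more numerous in each library, and the counted level of the receptor was higher in Olfr1347 neurons.

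Total depth was 100725429 to 111577458 UMIs per library. Library pairs shared between 136 and 172 cell barcodes, and 1 barcode of the pair occurred in both female 1 and male 2. Doublet scoring marked 3 of 114 Olfr1347 neurons, 17 of 218 Olfr1348 neurons and 906 other neurons. Barcodes with more than 0.5% of their UMIs from markers of other cell types are called mixed here, and there were 5 among Olfr1347 neurons, 5 among Olfr1348 neurons and 580 among the others. The highest such share was 1.46% in an Olfr1347 neuron. It was 45.1% in an Olfr1348 neuron of female 2 and 17.8% in one of female 1. Marked doublets and mixed barcodes stayed in the main tests. Changes without them are stated for some named results, not always with both values. A result printed without such a statement is not thereby shown to be unchanged.

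Against neurons of all other receptors, the pair differed in both directions. UMIs were summed per library and class and tested with edgeR's quasi-likelihood test, with the library as a block and Benjamini-Hochberg adjustment. Of 10823 non-receptor genes tested, 594 (5.49%) passed an adjusted p of 0.05, 309 of them higher (2.86%) and 285 lower (2.63%) in Olfr1347 and Olfr1348 neurons together. Without scaling beyond the total, the split was 231 higher and 360 lower. The change was in the same direction in all 4 libraries for 576 of the 594 genes, and the groups did not overlap for 511. These genes were picked by a test on the same libraries, so both counts partly follow from it and are no separate support. The shares over all 10823 genes are not given here. Changes beyond 2-fold were 31 higher and 107 lower. Whether other receptors would give as many calls against all the rest was not tested. Without male 1, 321 genes passed. Olfr1347 alone gave 238 of 9193 genes (2.59%), 126 higher (1.37%) and 112 lower (1.22%). Olfr1348 alone gave 440 of 10337 (4.26%), 223 higher (2.16%) and 217 lower (2.1%). Without male 2 the count for Olfr1347 was 157, and for Olfr1348 it was 278 without female 2 and 253 without male 1. Both comparisons use the same control sums, so their results are given side by side.

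The genes with the lowest p were mostly lower in the pair. Nqo1, a quinone reductase that marks dorsal OSNs (ENSMUSG00000003849, chr8:107388225-107403206), had 6.60, 18.3, 10.9 and 0 CPM in Olfr1347 neurons of female 1, female 2, male 1 and male 2. It had 5.23, 3.25, 0 and 6.80 CPM in Olfr1348 neurons and 257, 238, 232 and 350 CPM in the others. The pair therefore lay below the others in every library. The log2 difference between the pair and the others was -5.47 ± 0.14 (SE), with an adjusted p of 2.0e-14 by edgeR. Acsm4, an acyl-CoA synthetase that also marks dorsal OSNs, had a total of 3 UMIs in Olfr1347 neurons and 12 in Olfr1348 neurons. It averaged 4.57 CPM in the pair and 80.2 CPM in the others, with a log2 difference of -4.06 ± 0.20 (edgeR adjusted p 1.8e-10). Tshz1, a zinc-finger transcription factor, and Robo2, a guidance receptor, also fell, by 0.62 and 0.61 on the log2 scale. Nfix and Nfib, transcription factors of the nuclear factor I family, were higher by 0.39 and 0.43. With each receptor taken alone, Robo2 passed only in Olfr1347 neurons and Nfib only in Olfr1348 neurons. With equal weight for each receptor, as described further on, Tshz1, Nfix and Nfib no longer passed, and Robo2 turned to 0.71 and passed on the higher side. In all, 2 of the 12 tested zone markers were higher and 4 lower, against 2.86% higher and 2.63% lower over all genes tested. The median log2 difference of the list was 0.01, against 0.00 over all genes tested.

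Genes of peptides and of other kinds were also lower among the leading results. Cartpt, which encodes the peptide CART, had 82.5, 73.1, 126 and 44.6 CPM in Olfr1347 neurons and 168, 73.0, 90.5 and 131 CPM in Olfr1348 neurons. The other neurons had 515, 621, 604 and 731 CPM. All 8 values of the pair lay below those of the others, and the log2 difference was -2.51 ± 0.11 (edgeR adjusted p 6.5e-11). Cd55, an inhibitor of complement on the cell surface, had 14.8, 29.7, 6.64 and 8.86 CPM in the pair and 180, 211, 198 and 159 CPM in the others, a log2 difference of -3.51. Avp, the vasopressin precursor, averaged 4.61 ± 4.72 and 77.8 ± 31.8 CPM (SD, n = 4), a log2 difference of -4.04. Cd36, a fatty acid receptor of a subset of OSNs, fell by 3.35. Usp21, a deubiquitinase, fell by 1.34, Rasl11a, a small GTPase, by 2.55 and Olig1, a bHLH transcription factor, by 2.42. Hbb-bs, a haemoglobin gene, fell by 4.08.

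**Figure D2:**
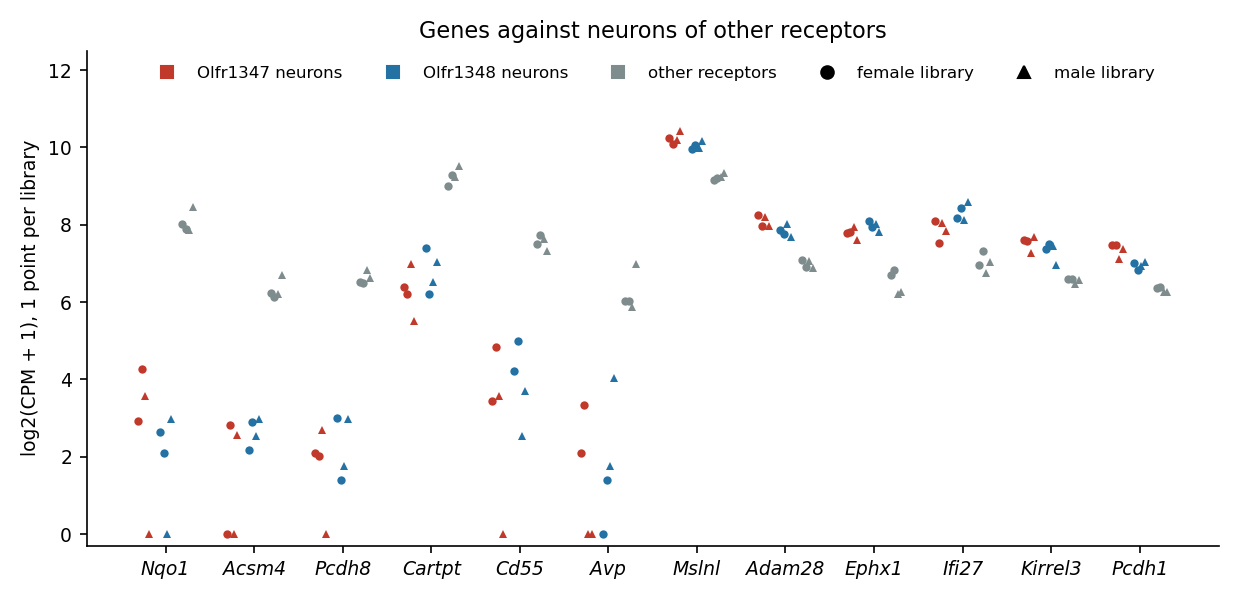
Levels of 12 genes as log2(CPM + 1), 1 point per library, in Olfr1347 neurons (red), Olfr1348 neurons (blue) and neurons of all other receptors (grey). Circles are female and triangles male libraries. The first 6 genes were lower in the pair and the last 6 higher, and for these genes the points of each receptor did not overlap the grey points, with points at 0 where a library had no UMI.

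A sum over all other receptors can be carried by a few of them, so levels were also set out over the 260 receptors with at least 20 neurons. Nqo1 pooled over libraries was 9.85 CPM in Olfr1347 neurons and 4.10 CPM in Olfr1348 neurons, which ranked 106 and 189 of 260. The median receptor had 7.47 CPM, 31 receptors were above 100 CPM and the highest, Olfr411, had 4018 CPM. Cd55 ranked 174 and 156, with a median of 22.0 CPM over receptors and 3124 CPM in Olfr354. Acsm4 ranked 179 and 124, with 26 receptors above 100 CPM. Cd36 ranked 144 and 124, at 6.89 and 8.65 CPM against a median of 7.97 CPM, with 17 receptors above 100 CPM. For Avp the ranks were 85 and 66, and 10 receptors held 93.7% of the UMIs of the other neurons. Olfr1346 alone held 53.2% of them. Of Hbb-bs, 10 receptors held 91.8%. None of these genes placed the pair at an end of the order.

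Other genes placed the pair nearer an end of the distribution. Pcdh8 ranked 235 and 227 of 260, at 2.95 and 4.55 CPM against a median of 34.4 CPM. Usp21 ranked 251 and 223, Rasl11a ranked 213 and 234, and H2bc21, a histone H2B gene, ranked 217 and 198. Olig1 ranked 238 in Olfr1347 neurons but 171 in Olfr1348 neurons, so for this gene only Olfr1347 lay near an end. Among the 69 receptors with at least 10 neurons in every library, Olfr1348 ranked 35 for Olig1. Among the higher genes, Mslnl ranked 15 and 40, Adam28 ranked 19 and 52, Ephx1 ranked 25 and 16, Kirrel3 ranked 33 and 44, and Pcdh1 ranked 10 and 37. When each other receptor with at least 10 neurons in every library was given equal weight, 304 genes passed, 236 higher and 68 lower. Of the 594 genes called for the pair in the main test, 218 passed again. The sign changed for 20 of the 594, whether or not they passed. The log2 differences then were -3.23 for Pcdh8, -1.06 for Usp21, -1.89 for Rasl11a, 1.37 for Mslnl, 1.39 for Adam28 and 2.07 for Kirrel3, and all 6 passed. Under the same weighting Nqo1 stood at 0.26 and Avp at 0.20, now on the positive side, and Cd55 at -0.91, Cartpt at -0.11 and Hbb-bs at -0.60. None of these 5 passed.

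**Figure D3:**
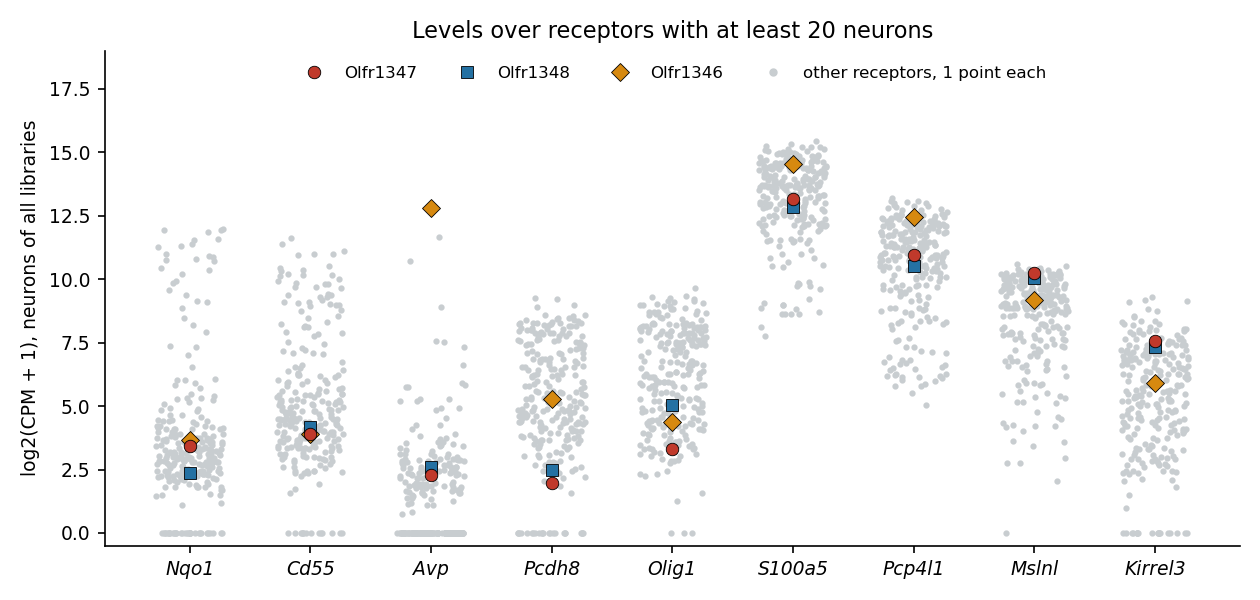
Levels of 9 genes as log2(CPM + 1) over receptors with at least 20 neurons, with neurons of all libraries pooled. Olfr1347 is the red circle, Olfr1348 the blue square and Olfr1346 the orange diamond, and each grey point is another receptor, spread sideways at random. The pair sat in the body of the points for Nqo1, Cd55 and Avp, low for Pcdh8 and high for Mslnl and Kirrel3, and Olfr1346 was the highest for Avp.

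Mslnl, a mesothelin-like surface protein (ENSMUSG00000041062, chr17:25736042-25748330), was the only gene among the 12 leading results that was higher in the pair. It had 1221, 1085, 1165 and 1369 CPM in Olfr1347 neurons, 994, 1069, 1019 and 1146 CPM in Olfr1348 neurons and 570, 586, 605 and 652 CPM in the others. The lowest member value was above the highest of the others. The log2 difference was 0.91 ± 0.05 for the pair (edgeR adjusted p 3.5e-10), 1.02 for Olfr1347 alone and 0.86 for Olfr1348 alone. Adam28, a membrane metalloprotease, averaged 274 ± 29.4 CPM in Olfr1347 neurons, 229 ± 23.9 CPM in Olfr1348 neurons and 126 ± 9.21 CPM in the others (SD, n = 4), a log2 difference of 0.98 for the pair. In Olfr1348 neurons, Ephx1, an epoxide hydrolase, was higher by 1.51 and Ifi27, an interferon-inducible mitochondrial protein, by 1.37. Ephx1 averaged 251 ± 21.7 CPM in Olfr1348 neurons, 220 ± 21.6 CPM in Olfr1347 neurons and 91.2 ± 19.9 CPM in the others (SD, n = 4). Mslnl and Adam28 belong to 10 genes that earlier results of these data had shown to differ between receptors. Of these, 2 were higher and 5 lower in the pair, against 2.86% and 2.63% over all genes tested. That list was chosen on these samples and is no independent evidence.

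Genes linked to neuronal activity were mostly lower in the pair pooled and in Olfr1348 neurons. Of 9 tested in the pair, 7 were lower, 1 was higher and 1 did not pass, with a median log2 difference of -0.59. In Olfr1347 neurons alone 3 were lower, 1 was higher and 5 did not pass. In Olfr1348 neurons alone the numbers were 7, 1 and 1. Over all genes tested, 2.63% were lower and 2.86% higher in the pair. The shares were 1.22% and 1.37% for Olfr1347, and 2.1% and 2.16% for Olfr1348. S100a5, a calcium-binding protein, had 8187, 6990, 15053 and 9203 CPM in Olfr1347 neurons, 5830, 5209, 10716 and 8407 CPM in Olfr1348 neurons and 11856, 11217, 17301 and 13192 CPM in the others. Within each library the order was Olfr1348, Olfr1347, others, while the ranges over libraries overlapped. The log2 difference was -0.69 ± 0.06 for the pair (edgeR adjusted p 6.1e-07), -0.47 for Olfr1347 and -0.82 for Olfr1348. Pcp4l1, a calmodulin-regulating peptide of the same list, fell by 0.59, Kirrel2 by 0.49 and Calb2, the calcium-binding protein calretinin, by 0.81. Calb2 varied between libraries, from 156 to 490 CPM in the pair against 446 to 536 CPM in the others. With equal weight for each receptor, Pcp4l1 stood at 0.13, Calb2 at 0.15 and S100a5 at -0.14, and none of these passed. Kirrel2 stood at -0.42 and still passed. In the main test of each receptor alone, Kirrel2 passed in Olfr1348 neurons but not in Olfr1347 neurons.

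Kirrel3 went the other way from Kirrel2. Both are adhesion proteins that sort OSN axons by like binding like. Kirrel3 averaged 186 ± 22.3 CPM in Olfr1347 neurons, 161 ± 25.6 CPM in Olfr1348 neurons and 93.6 ± 3.74 CPM in the others, and Kirrel2 averaged 858 ± 225, 671 ± 171 and 1042 ± 125 CPM (SD, n = 4). The log2 differences for the pair were 0.88 ± 0.08 and -0.49 ± 0.07. Of 22 tested genes of axon sorting and guidance, 3 were higher and 5 lower, with a median of -0.06. The shares over all genes tested were 2.86% higher and 2.63% lower. The semaphorin Sema7a was higher by 0.40 and the ephrin receptor Epha5 by 0.27. Plxna1, a receptor for secreted semaphorins, fell by 0.97, the ephrin Efna5 by 0.86 and the secreted semaphorin Sema3a by 2.80. With each receptor taken alone, Epha5 passed only in Olfr1347 neurons, at 0.61, and Efna5 and Sema3a only in Olfr1348 neurons. Epha5 pooled over libraries had 427 CPM in Olfr1348 neurons, and the median over 260 receptors was 430 CPM. Plxna1, Efna5, Sema3a and Epha5 no longer passed when receptors had equal weight, and Robo2 then turned to the higher side, as given above.

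Among 14 tested protocadherins and cadherins, which are calcium-dependent adhesion proteins, 4 were lower and 1 was higher. The shares over all genes tested were 2.63% lower and 2.86% higher. Pcdh8 had 3.30, 3.05, 5.47 and 0 CPM in Olfr1347 neurons, 6.98, 1.62, 2.38 and 6.80 CPM in Olfr1348 neurons and 90.8, 88.6, 114 and 97.9 CPM in the others. The groups were far apart, and the log2 difference was -4.53 ± 0.20 (edgeR adjusted p 4.3e-11). Pcdh11x had 0 UMIs in all 332 neurons and 4079 in the others (27.8 CPM). Against a floor of 3 counts over the group it was at least 29.8-fold lower than in the others. Its median over the 260 receptors with at least 20 neurons was also 0 CPM. Pcdh9 fell by 2.89 and Pcdh7 by 2.21, and neither passed with equal weight for each receptor. Pcdh1 was higher in the pair, at 164 ± 19.2 CPM in Olfr1347 neurons and 123 ± 7.44 CPM in Olfr1348 neurons against 78.7 ± 3.67 CPM (SD, n = 4), a log2 difference of 0.83 ± 0.08. Of 18 tested synaptic organizers, 1 passed, against 5.49% over all genes tested. It was the teneurin Tenm2, which fell by 0.68.

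Of 23 tested genes of olfactory transduction, 4 were higher and 1 lower, against 2.86% higher and 2.63% lower over all genes tested, and the median was 0.03. Stoml3, a stomatin of the olfactory cilia, averaged 13146 ± 1337 CPM in the pair and 9673 ± 273 CPM in the others (SD, n = 4), a log2 difference of 0.48 ± 0.06. Cnga2, a subunit of the cyclic nucleotide-gated channel, averaged 1275 ± 67.2 CPM in Olfr1347 neurons, 1237 ± 36.8 CPM in Olfr1348 neurons and 996 ± 19.2 CPM in the others, a log2 difference of 0.37. The further calls were the channel subunit Cnga4 at 0.19, the phosphodiesterase Pde1c at 0.18 and the calcium exchanger Slc24a4 at -0.36. Among these, only Slc24a4 passed in a receptor taken alone, in Olfr1348 neurons. Cnga4 and Pde1c lost the call without marked doublets and mixed barcodes, and Pde1c and Slc24a4 with equal weight for each receptor. Of 19 maturation genes, 4 were higher and 2 lower, and the 4 were Stoml3, Cnga2, Gap43 and Dcx. The 2 lower were Tubb3, a neuronal tubulin, which fell by 0.59 (edgeR adjusted p 2.1e-06), and Umodl1, which fell by 0.21. Gap43 and Dcx mark immature neurons. With each receptor taken alone, Gap43 passed only in Olfr1348 neurons and Dcx in neither. Gap43 was higher by 0.74, in 3 of 4 libraries, and Dcx by 0.29, with edgeR adjusted p of 0.0028 and 0.030, and neither passed in DESeq2 or with a stricter assignment (10 UMIs, 90%). Of 17 regulators of receptor choice, Lhx2 was higher by 0.20, and Ebf1 and Emx2 fell by 0.44 and 0.39. These are transcription factors that bind receptor enhancers and promoters. Ebf1 passed in each receptor taken alone, Lhx2 only in Olfr1348 neurons and Emx2 only in Olfr1347 neurons. Of 14 immediate early genes, Btg2 was higher by 0.42 and Atf3 fell by 0.70. With each receptor taken alone, Btg2 passed only in Olfr1348 neurons and Atf3 only in Olfr1347 neurons.

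Markers of other cell types were compared over the whole lists. The 10 immune markers summed to 8.47 to 21.5 CPM in the pair and 76.3 to 184 CPM in the others, with Ptprc, Cd79a, Cd3e and Tyrobp at 0 in the pair. Of 7 tested, 6 were lower, against 2.63% over all genes tested. Without marked doublets and mixed barcodes, Cd74 stood at -0.72 and Lyz2 at 0.061 and neither passed, and Tyrobp, C1qb, S100a9 and C1qa were not among the genes tested. With equal weight for each receptor, Cd74 stood at -1.68, Tyrobp at -1.31, Lyz2 at -0.32, C1qb at 0.077 and C1qa at 0.34, and none of these passed. The 11 markers of glands and respiratory epithelium summed to 749 to 1310 CPM in Olfr1347 neurons, 836 to 24226 CPM in Olfr1348 neurons and 1646 to 2278 CPM in the others. The values of Olfr1348 neurons in females stood apart, at 7985 and 24226 CPM. The 9 supporting-cell markers summed to 175 to 539, 307 to 640 and 377 to 514 CPM in the same order. The 11 markers of glia, stroma and blood summed to 23.1 to 67.0, 37.4 to 441 and 166 to 290 CPM, and the 9 basal cell markers to 0 to 79.2, 7.15 to 104 and 42.9 to 83.6 CPM. The part of these cells in the results above was not tested, except that without marked doublets and mixed barcodes 620 genes passed, 506 of them among the 594.

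The direct comparison of Olfr1347 with Olfr1348 neurons gave few calls. Of 9135 genes, 34 (0.372%) passed, 5 higher (0.0547%) and 29 lower (0.317%) in Olfr1347 neurons, and 699 genes had an unadjusted p under 0.05. Leaving out female 2 gave 52 calls and leaving out male 2 gave 60. DESeq2 called 1 gene, S100a5, and edgeR without the library block also called 1, Tmem64. In 20 of the 34 genes, a single Olfr1348 neuron held between 32.6% and 98.1% of the UMIs of that class. Bpifa1, a secreted protein of nasal glands, had 13820 of its 18475 UMIs (74.8%) in 1 neuron of female 2, Reg3g had 77.2% of 574 UMIs in 1 neuron of female 2, and Apod, a glial and stromal marker, had 86.7% of 196 UMIs in 1 neuron of female 1. Sult1c1, a sulfotransferase of supporting cells, had 61.0% of 187 UMIs in 1 neuron of male 2. Without marked doublets and mixed barcodes, Bpifa1 stood at -0.30 and Reg3g at -0.53 and did not pass, Apod stood at 0.48 on the other side, and Sult1c1 stood at -2.77 and passed. Sult1c1 stood at -1.71 without male 2, Apod at -2.53 without male 1 and at 0.74 without female 1, and none of these passed. That set gave 35 calls, 19 of them among the 34.

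The remaining 14 genes were spread over many neurons, with at most 12.6% of UMIs in 1 neuron, and 5 of them were higher in Olfr1347 neurons. Tmem64, a transmembrane protein of calcium handling (ENSMUSG00000043252, chr4:15265831-15286753), had 373, 414, 339 and 352 CPM in Olfr1347 neurons and 244, 208, 219 and 229 CPM in Olfr1348 neurons. The groups did not overlap, and the others lay between them at 297 to 313 CPM. The log2 difference was 0.70 ± 0.12 (edgeR adjusted p 0.0010). Epha5 had 621, 548, 716 and 665 CPM against 450, 391, 481 and 405 CPM, without overlap, a log2 difference of 0.53 ± 0.10 (edgeR adjusted p 0.0033). Both passed in each of the 4 fits that left out a library. Pcp4l1 and S100a5 were higher by 0.42 and 0.36, in 4 of 4 libraries each. They no longer passed without female 1, female 2 or male 1, where their adjusted p lay between 0.093 and 0.39 by edgeR. Necab1, a neuronal calcium-binding protein, was higher by 1.04 from 77 UMIs, and was looked at after its value was seen.

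Genes that were lower in Olfr1347 than in Olfr1348 neurons included 3 of 11 tested immediate early genes, against 0.317% lower over all genes tested. The list's median was -0.53 against 0.00 over all genes. Egr1, a zinc-finger transcription factor, had 112, 277, 355 and 218 CPM in Olfr1347 neurons and 379, 378, 414 and 474 CPM in Olfr1348 neurons. The groups did not overlap, female 1 was the lowest, and the log2 difference was -0.85 ± 0.15 (edgeR adjusted p 0.0028). Junb, a subunit of the AP-1 factor, averaged 107 ± 52.0 and 199 ± 30.7 CPM (SD, n = 4), and Nr4a1, an orphan nuclear receptor, 44.6 to 104 and 118 to 155 CPM over libraries, with log2 differences of -0.86 each. Without marked doublets and mixed barcodes, the differences were -0.51, -0.48 and -0.48 and none passed, with adjusted p of 0.080, 0.43 and 0.55. All 3 also lost the call without female 1, Junb without male 1 and Nr4a1 without male 2. Against the others, Egr1, Junb and Nr4a1 were lower in Olfr1347 neurons by 0.72, 0.78 and 0.87, and in Olfr1348 neurons they stood at 0.13, 0.07 and 0.01 and did not pass.

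Another 4 named genes were lower in Olfr1347 neurons in all 4 libraries without overlap, and each stayed past the threshold without doublets and mixed barcodes. Dcdc2a, a microtubule-binding doublecortin protein, had 657, 542, 711 and 565 CPM against 928, 823, 867 and 794 CPM. Its log2 difference was -0.50 ± 0.09. Ppp1r15b, a regulator of the eIF2α phosphatase, had 390, 378, 197 and 352 CPM against 550, 516, 583 and 445 CPM, a difference of -0.66 ± 0.13. H2bc21 had 360, 354, 366 and 347 CPM against 562, 500, 524 and 447 CPM, a difference of -0.54 ± 0.10, and both were below the 773 to 808 CPM of the others. Olig1 had 16.5, 6.09, 5.47 and 4.96 CPM against 34.9, 47.1, 26.2 and 17.0 CPM, a difference of -1.91 ± 0.45 from 9 and 70 UMIs. Dcdc2a lost the call without female 1 or female 2, Ppp1r15b without male 1, H2bc21 without female 1 and Olig1 without female 1, female 2 or male 1. None of the tested zone markers, protocadherins, synaptic organizers, transduction genes, maturation genes or choice regulators (8, 10, 15, 22, 19 and 17 genes) passed between the pair. Over all genes tested, 0.372% passed. A difference that did not pass is not shown to be absent.

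**Figure D4:**
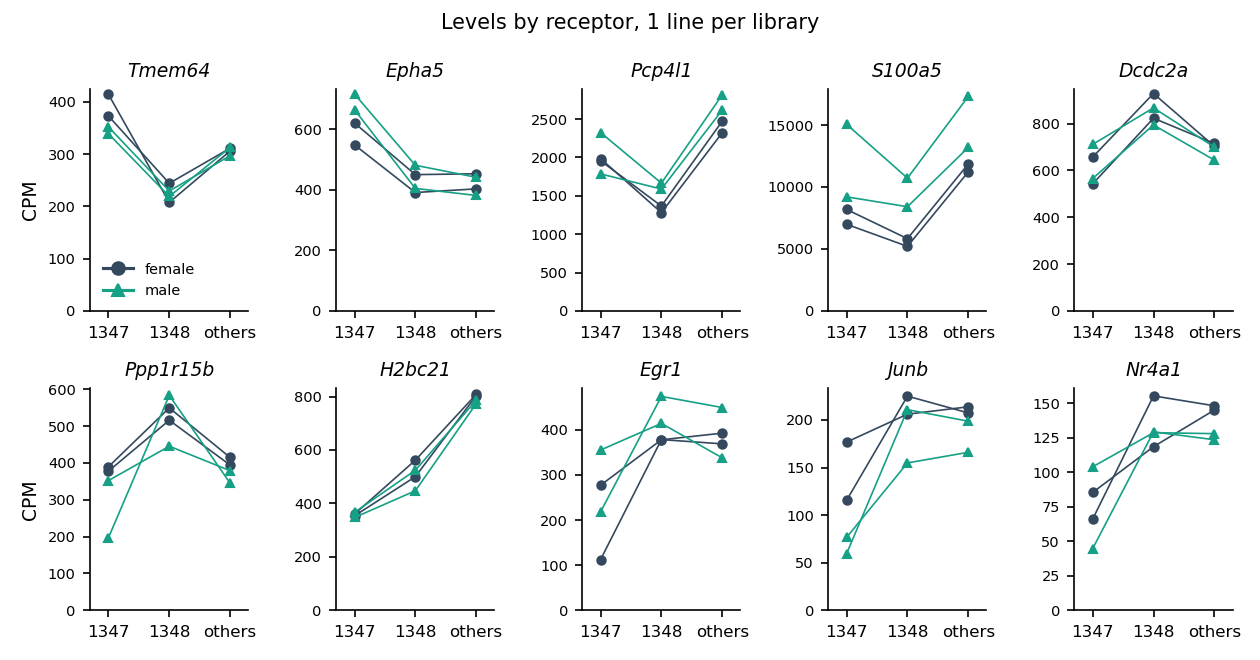
Levels in CPM of 10 genes in Olfr1347 neurons, Olfr1348 neurons and neurons of all other receptors, 1 line per library (dark circles female, green triangles male), each panel with its own axis from 0. The first 4 genes were higher in Olfr1347 than in Olfr1348 neurons and the last 6 lower, in each library, and S100a5 and Junb overlapped between the pair.

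How far the pair stood apart was set against comparisons with single receptors, over 69 receptors with at least 10 neurons in every library. Olfr1347 gave between 2 and 861 calls against the other 68, with a median of 156.5, and Olfr1348 gave between 7 and 1026, with a median of 190. The 34 calls between the pair ranked 7 from the lowest for Olfr1347 and 2 from the lowest for Olfr1348. The numbers of calls also depend on the numbers of neurons, which ranged from 44 to 320, and these comparisons share neurons. The lowest numbers were against Olfr329 (59 neurons), with 2 and 7 calls. Olfr1336 of the same cluster (82 neurons) gave 54 and 40 calls.

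Olfr1346, whose gene lies on the other side of Olfr5 from the pair, gave more calls against each of them than they gave with each other. It had 80 neurons, and 397 of 8961 genes (4.43%) differed from Olfr1347 and 603 of 8989 (6.71%) from Olfr1348, with 184 (2.05%) and 285 (3.17%) higher and 213 (2.38%) and 318 (3.54%) lower in the pair, ranks 63 and 66 of 68. The count for Olfr1347 was 218 without female 1 and 205 without male 2, and DESeq2 called 96 against Olfr1347 and 211 against Olfr1348. The comparison was added after the data were seen. Avp had 5288, 3736, 4562 and 12500 CPM in Olfr1346 neurons, against at most 9.14 CPM in Olfr1347 and 15.3 CPM in Olfr1348 neurons. The log2 differences from Olfr1346 were -10.41 ± 0.23 and -10.29 ± 0.18. Fxyd2, a regulator of the sodium pump, followed with 552, 374, 808 and 971 CPM in Olfr1346 neurons and 5 UMIs in all neurons of the pair. S100a5 had 25947, 22502, 29021 and 19683 CPM in Olfr1346 neurons, above every value of the pair, and the differences were -1.34 and -1.72. Pcp4l1 differed by -1.49 and -1.93 and Pcdh7 by -3.16 and -5.02. Efna3, an ephrin, was higher in Olfr1347 than in Olfr1346 neurons by 2.43. Among the 69 receptors, Olfr1346 was the lowest for Efna3, and Olfr1347 and Olfr1348 ranked 27 and 26. Olfr1346 was the highest for Avp and Fxyd2, where Olfr1347 and Olfr1348 ranked 31 and 24, and 19 and 25.

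**Figure D5:**
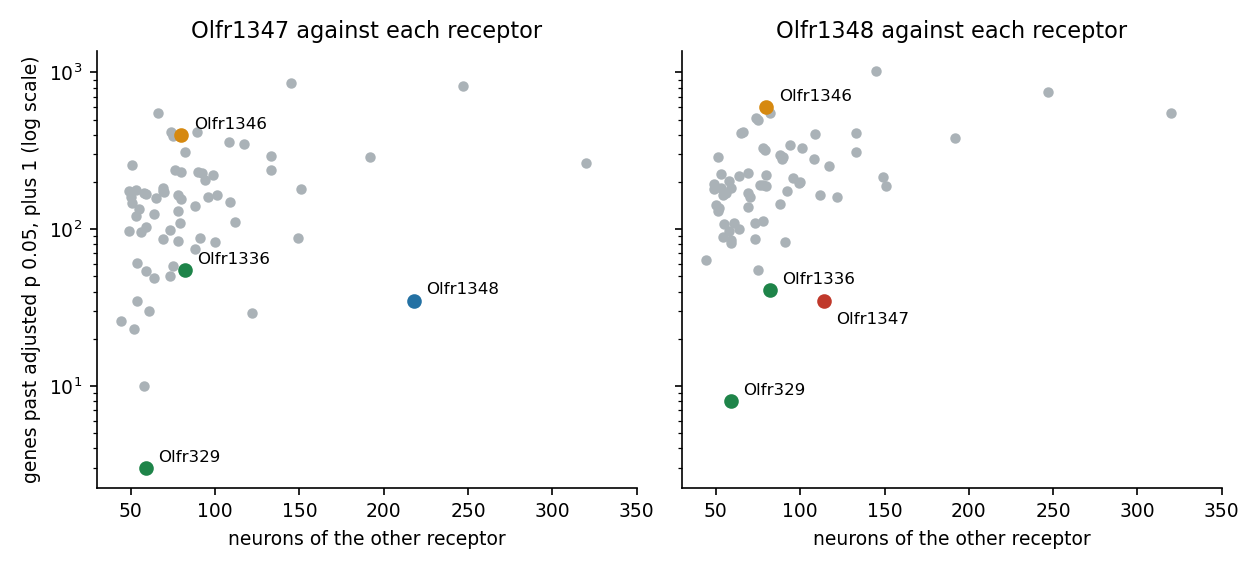
Genes past an adjusted p of 0.05, plus 1 on a log axis, between Olfr1347 (left) or Olfr1348 (right) and each of 68 other receptors, against the number of neurons of the other receptor. The pair gave 34 calls with each other, and Olfr1346 gave 397 and 603.

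Genes around the locus were read for the pair. Within 500 kb of Olfr1347 or Olfr1348, 6 non-receptor genes were tested against the others and 2 passed, against 5.49% over all genes tested. Peg3, an imprinted zinc-finger gene at chr7:6703892-6730431, averaged 63.1 ± 12.9 CPM in the pair and 96.2 ± 4.63 CPM in the others (SD, n = 4), without overlap. It fell by 0.57 in the pair (edgeR adjusted p 0.0020). Zfp78, a zinc-finger gene at chr7:6363280-6382605, fell by 0.82 from 33 UMIs in the pair (edgeR adjusted p 0.037). Neither passed with equal weight for each receptor. Zfp28, Zfp444, Zfp667 and Zfp787 had adjusted p of 0.52 or more. Receptor genes next to the pair were rarely seen in its neurons, with 1 UMI of Olfr1346, 2 of Olfr5, 3 of Olfr1336 and 4 of Olfr1349 in 332 neurons. The neurons were chosen for a high share of a single receptor, so low counts of neighbouring receptors partly follow from the choice.

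Male and female libraries differed in 6 of 10561 genes (0.0568%) in the pair. Males had 4 of them higher (0.0379%) and 2 lower (0.0189%). Before adjustment, 497 genes had p under 0.05. Eif2s3y, Ddx3y and Uty of the Y chromosome were among the higher genes. S100a5 was higher in males by 0.75 ± 0.13 (edgeR adjusted p 0.050), with 6645 and 5828 CPM in the female and 12032 and 8611 CPM in the male libraries. The other neurons had 11856 and 11217 CPM in females and 17301 and 13192 CPM in males. The order of the 4 libraries was the same in both classes. The call was lost without female 2 or male 1 and in DESeq2. Bpifa1 and Reg3g were lower in males by 5.37 and 3.53, and stood at -0.48 and -1.33 without marked doublets and mixed barcodes, where neither passed. DESeq2 called 2 genes, and 46 had an unadjusted p under 0.05 in it. Leaving out 1 library gave 24 calls (female 1), 17 (female 2), 106 (male 1) and 67 (male 2).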

How the data were processed

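Single-cell RNA was measured in 4 droplet libraries that read the 5′ end of transcripts. The authors deposited raw UMI counts per gene and barcode, and the file headers name Cell Ranger 6.0.2 while the submitters' processing notes name Cell Ranger 5.0.1 and mm10. Positions and coding sequences came from GENCODE M21 on GRCm38, which held 22285 of 22399 gene IDs (99.5%).

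Barcodes were chosen by the rule that opens the report, and the neurons and gene lists were chosen with earlier results of these data known. UMIs were summed per library and class. Receptor and mitochondrial genes, Omp and Cyp2g1 were left out. Genes whose mean level equalled at least 2 counts in a mean sum of the smaller class were tested with edgeR 4.0.16 (quasi-likelihood, TMM scaling, library as block, R 4.3.3), with Benjamini-Hochberg adjustment at 0.05. The 2 classes of a comparison come from the same library, so the library pairs them. The sexes were compared without a block. The test was checked on simulated data that held no library effects and no single neurons with most of the UMIs. It recovered 52.6% of 2-fold and 91.8% of 4-fold changes between Olfr1347 and Olfr1348. For the pair against the others it recovered 85% and 95.9%, and between the sexes 39.8% and 83.7%. False calls were 2.8%, 3.8% and 6.9% of the calls in the same order. CPM values use total UMIs without TMM.

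Named genes were the 12 with the lowest p that passed and went the same way in all 4 libraries (between the sexes, without overlap), listed genes that passed, and tested genes within 500 kb of the pair. Doublets were scored against simulated barcodes, with 0.8% marked per 1000 barcodes. Alternatives were RLE scaling, no scaling, other filters, DESeq2 1.42.0, a stricter assignment (10 UMIs, 90%), neurons of at least 3000 UMIs, no marked doublets, no block, class II or equally weighted control receptors, and each library left out. The comparisons with Olfr1346, the sex interactions and the set without mixed barcodes were chosen after seeing the data. Intervals cover counting error only.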

Additional observations from a re-analysis of the deposited data

Results flagged for a closer look

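By Dixon's 95% criterion, 3 of 113 groups of 4 libraries held a library that stood apart from the others. The criterion divides the gap to the nearest library by the range. The groups were levels of named genes in each class, and shares, depths and receptor levels. Gene groups under 20 UMIs were counted in the 113 but could not be flagged. Chance gives about 1 in 20 of the groups that can be flagged, and their number was not counted. All 3 were in neurons of other receptors. Acsm4 stood apart in male 2, at 103 CPM, with a ratio of 0.856. Avp stood apart in male 2, at 125 CPM, with a ratio of 0.888. Plxna1 stood apart in male 1, at 86.8 CPM, with a ratio of 0.874.

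Sex interactions passed for 10 of 9135 genes between Olfr1347 and Olfr1348 neurons and for 9 of 10823 genes between the pair and other neurons, by edgeR with Benjamini-Hochberg adjustment. For Bpifa1, the log2 difference of Olfr1347 over Olfr1348 was larger in males than in females by 4.90 (adjusted p 4.5e-11). In female 1 and female 2, Bpifa1 was at 7219 and 22837 CPM in Olfr1348 neurons, and 1 neuron of female 2 held 74.8% of the Olfr1348 UMIs. For Sult1c1, the log2 difference of the pair over other neurons was larger in males by 2.15 (adjusted p 0.034), and 1 Olfr1348 neuron of male 2 held 61.0% of the UMIs in that class.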

How the results depend on the processing

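Between Olfr1347 and Olfr1348 neurons, 34 genes passed, against 93 with no filter on low counts, 1 in DESeq2, 77 under the stricter assignment, 1 with no replicate block and 25 to 60 with 1 library left out. The pair against other neurons gave 594, against 304 with equal weight for each receptor and 321 to 456 with 1 library left out. Without scaling beyond the total, 60.9% of calls were lower in place of 48.0%, and for Olfr1348 alone 154 were higher and 270 lower. Olfr1347 alone gave 238, against 150 in DESeq2, 115 with equal weight and 157 to 205 with 1 library left out. Olfr1348 alone gave 440, against 272 with equal weight and 253 to 389 with 1 library left out. Against Olfr1346, DESeq2 gave 96 and 211 in place of 397 and 603, and leaving out 1 library gave 205 to 403 and 441 to 554. Between the sexes 6 passed, against 82 with no filter, 2 in DESeq2, 3 under the stricter assignment, 3 with at least 3000 UMIs, 1 without marked doublets and 17 to 106 with 1 library left out. With the replicate number as a block, 92 passed between the sexes. The labels do not say that the numbers pair libraries, and the deviations correlated at 0.0976 over 10561 genes and at 0.194 over the 3312 with at least 200 UMIs. With no replicate block, the other counts were 554, 196, 412, 354 and 508, in the order above. Leaving out 1 library moved the male minus female share from -0.273 to -0.159 points for Olfr1347 and from -0.333 to 0.0030 for Olfr1348, and the depth difference from -1182 to -589 UMIs.

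With equal weight for each receptor, a mean of log levels in which a few high receptors count less by construction, these log2 differences changed sign. For the pair, Nqo1 was 0.26, Avp 0.20, Pcp4l1 0.13, Robo2 0.71, C1qb 0.077, Calb2 0.15, Rasgrp4 0.51 and C1qa 0.34. For Olfr1347, Nqo1 was 0.81, Avp 0.058, S100a5 0.032, Pcdh7 0.30, Robo2 0.54 and Pcp4l1 0.34. For Olfr1348, Cartpt was 0.19, Avp 0.35, Lyz2 0.27, Rasgrp4 0.26, Tshz1 0.016 and Calb2 0.39. Without marked doublets, Apod between the pair was 0.52 and Lyz2 in Olfr1348 neurons 0.040. Without mixed barcodes too, Apod was 0.48, Lyz2 for the pair 0.061, Dcn -0.049, Scgb1c1 in Olfr1347 neurons 0.045 and Gstm1 against Olfr1346 0.37. With 1 library left out, Apod between the pair ranged from -3.12 to 0.74, the latter without female 1. Of these only Robo2 for the pair passed (edgeR adjusted p 0.0028). The causes were not tested. Of 1071 values of 68 named genes for the pair, 896 kept direction and side of the threshold, and of 275 values of 20 genes between Olfr1347 and Olfr1348, 213 did. The number of neurons, 21 to 34 per library for Olfr1347, limits the precision of low genes.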
